A study of Mus musculus with 18 samples.

Results

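The 10 genes described here are Nppa, Nppb, Myh6, Myh7, Acta1, Ankrd1, Tnni1, Myl4, Myl7 and Sprr1a, genes of the cardiac stress response and of the fetal gene program of heart muscle. They were chosen by name and not by their values in this table, and 10 of 10 were found among the 24479 gene features of the array. Left ventricular RNA of mice was hybridized to 18 arrays, 3 in each of 6 groups. FFFF mice carried loxP-flanked alleles of both CaMKIIδ and CaMKIIγ and no Cre and are labelled wild-type, and DKO mice carried the same alleles together with Cre under the cardiomyocyte-specific α-MHC promoter, so that non-muscle cells of DKO hearts kept both kinases. All mice had a mixed 129/Sv and C57BL/6 background, and the labels give no age for any array. The study's methods give 10 to 15 weeks for DKO mice at surgery and do not state the age of these FFFF mice separately. Each genotype was studied after sham surgery, and at 1 or 5 days of reperfusion that followed 60 minutes of ischemia (ischemia/reperfusion, I/R). I/R samples came from the ischemic area and sham samples from left ventricular myocardium, so that the region sampled and the surgery cannot be told apart. The labels name no litters or animals, and the p-values below measure the spread between arrays.

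When heart muscle is overloaded or injured, it returns in part to the transcript pattern of the fetal ventricle. Natriuretic peptide genes and fetal or skeletal muscle isoforms of contractile proteins rise, and in the mouse the adult α-myosin heavy chain declines in favour of the β form. CaMKII phosphorylates class II histone deacetylases, which repress the MEF2 transcription factors, and is one of the kinases known to act on this program. The comparison of DKO with FFFF asked whether the program differed without CaMKII in cardiomyocytes, and the comparison with sham asked how it moved with injury. DKO mice carried Cre and FFFF mice did not, so that loss of CaMKII and the presence of Cre cannot be told apart.

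The data are log2 array values, and the scale sets a limit on what can be seen for the most abundant transcripts. All 18 arrays shared 1 distribution of values, with a lowest value of 3.49, a median of 4.85 and a highest value of 13.93. A value therefore stood for a rank within its array: rank 1 was 13.93, rank 2 was 13.75, rank 3 was 13.68 and rank 4 was 13.58. Nppa held rank 1 in 10 of 18 arrays and one of the top 3 ranks in 15. At the other end, 1066 olfactory receptor features were taken as a measure of background. Their values over all arrays had a median of 3.81, and 95% of these values lay between 3.59 and 4.89. Tnni1 lay above that range in 1 array, Myl4 in 1 and Myl7 in 0 of 18. A difference below means a difference in log2 array value, tested with limma over 6 groups, and a gene was called where its p, adjusted by Benjamini-Hochberg over the 24479 features, was under 0.05.

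**Figure D1:**
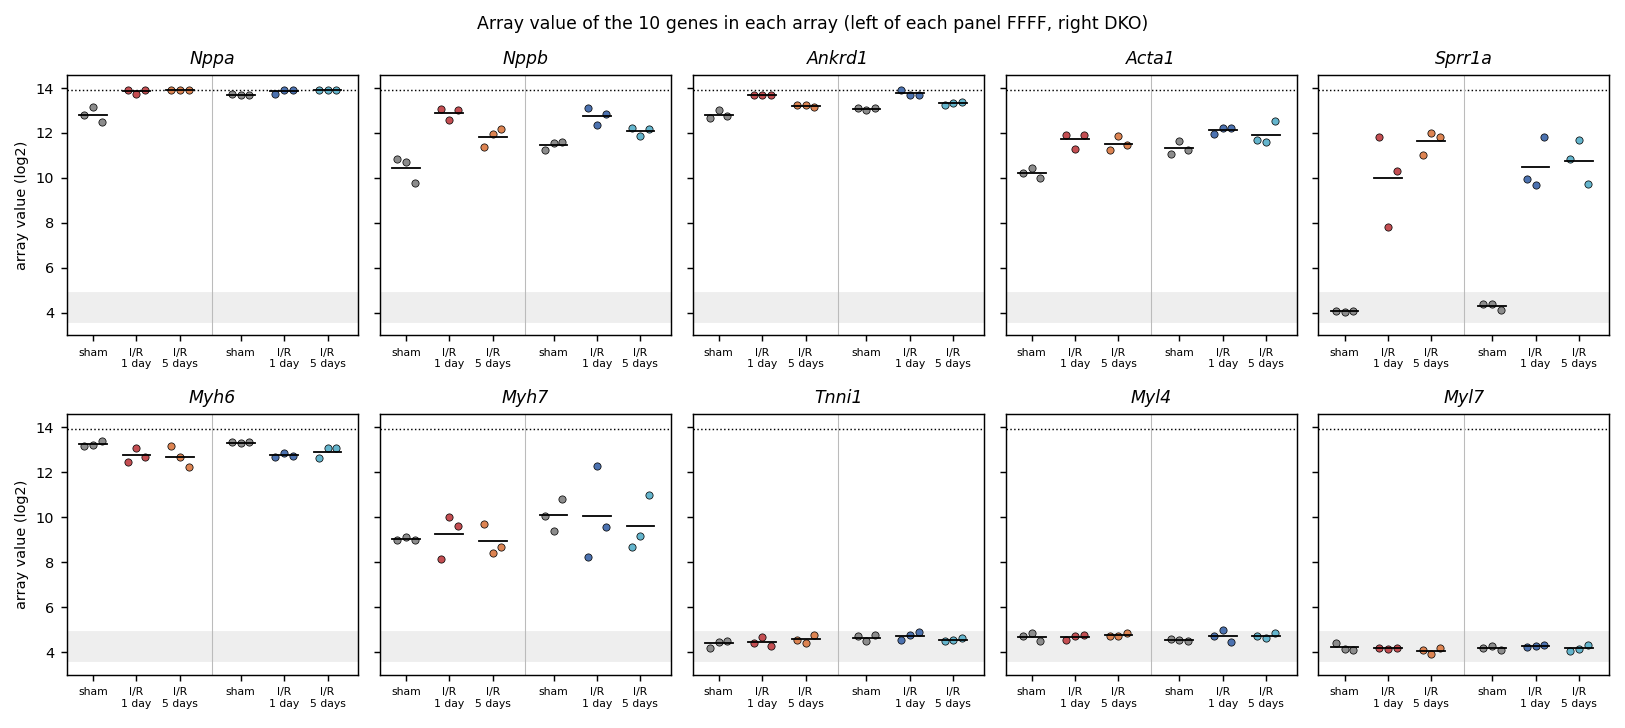
Array value (log2) of each gene in every array; grey points are sham, red and orange are FFFF at 1 and 5 days, dark and light blue are DKO at 1 and 5 days, and black bars are means of 3 arrays. The dotted line is the highest value of an array (13.93) and the grey band holds 95% of the values of the olfactory receptor features (3.59 to 4.89). Nppa sat at or just below the line after I/R, and Tnni1, Myl4 and Myl7 lay in or at the edge of the band in every group.

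Both targeted genes had lower values in every DKO sham array than in every FFFF sham array, with Camk2g at 5.46 to 5.87 in DKO sham against 6.96 to 7.2 in FFFF sham and Camk2d at 9.10 to 9.27 against 9.64 to 9.85. Replicate 1 of the arrays labelled DKO at 1 day was an exception. Camk2d was 9.71 there, against 7.90 and 8.31 on the other arrays of its group and 9.59 to 9.83 in FFFF at 1 day, and Camk2g was 7.10, against 5.99 and 6.21 on those arrays and 7.0 to 7.37 in FFFF. This array labelled DKO thus went against its label, and the differences and calls of DKO at 1 day are also given without it. All differences without it rest on 2 DKO arrays at 1 day. By their sex-linked transcripts, 2 of 3 arrays at 5 days in each genotype came from males and all other arrays from females. The 12 cardiomyocyte markers averaged 12.78 to 12.86 in FFFF sham and 12.80 to 12.85 in DKO sham, and the tissue label held. The 8 atrial markers averaged 5.72 to 5.89 in FFFF sham, 5.68 to 5.79 in DKO sham and 5.15 to 5.77 after I/R. Of these, Sln and Bmp10 had group means of 3.83 to 3.98 and 4.01 to 4.23, which is within the olfactory receptor range. The mean of the list lay above that range in every array, so that others of the 8 had higher values. At 5 days 1 of the 8 was called higher and 1 lower in FFFF, where 8.26% and 10% of all features were. In DKO 1 was called higher, where 3.23% were. The list does not show that atrial tissue was absent.

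The promoters of the 5 genes that rose after I/R in FFFF are shown first, because these genes were called higher there at both times and are the ones the results turn on. Each sequence holds the 250 bases before the gene's annotated start in RefSeq (build GRCm38.p6), 5′ to 3′ on the gene's strand. The capitals mark matches, on either strand, to TATAAA (the TATA box), GATAA (the core bound by GATA factors), CATTCC (the core of the M-CAT element bound by TEAD factors), TGAGTCA (the AP-1 element) and the CArG box bound by SRF.
Nppa, chr4:148000472-148000721, plus strand: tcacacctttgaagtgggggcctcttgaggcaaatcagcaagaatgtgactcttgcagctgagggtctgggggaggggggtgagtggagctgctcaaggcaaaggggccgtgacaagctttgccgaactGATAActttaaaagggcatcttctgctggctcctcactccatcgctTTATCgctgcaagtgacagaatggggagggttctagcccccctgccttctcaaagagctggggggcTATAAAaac
Nppb, chr4:147985650-147985899, plus strand: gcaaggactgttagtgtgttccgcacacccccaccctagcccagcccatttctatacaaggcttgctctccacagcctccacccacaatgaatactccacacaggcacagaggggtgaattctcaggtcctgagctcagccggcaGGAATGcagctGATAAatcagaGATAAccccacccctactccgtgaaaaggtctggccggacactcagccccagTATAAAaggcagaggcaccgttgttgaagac
Acta1, chr8:123894776-123895025, minus strand: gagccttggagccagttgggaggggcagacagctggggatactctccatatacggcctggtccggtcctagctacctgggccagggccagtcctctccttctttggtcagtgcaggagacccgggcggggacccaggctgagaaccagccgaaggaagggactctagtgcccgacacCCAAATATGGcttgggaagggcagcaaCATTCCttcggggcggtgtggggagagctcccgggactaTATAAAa
Ankrd1, chr19:36119845-36120094, minus strand: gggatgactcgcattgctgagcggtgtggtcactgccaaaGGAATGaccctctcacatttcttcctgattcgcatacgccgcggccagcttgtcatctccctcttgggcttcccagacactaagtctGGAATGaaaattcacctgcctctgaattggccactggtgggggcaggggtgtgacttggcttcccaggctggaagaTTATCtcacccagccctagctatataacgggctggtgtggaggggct
Sprr1a, chr3:92485882-92486131, minus strand: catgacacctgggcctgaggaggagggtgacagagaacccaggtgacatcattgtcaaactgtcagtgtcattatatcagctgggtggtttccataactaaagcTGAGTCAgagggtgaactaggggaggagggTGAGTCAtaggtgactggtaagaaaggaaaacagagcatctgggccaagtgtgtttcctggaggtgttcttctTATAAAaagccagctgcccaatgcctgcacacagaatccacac

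Nppa and Nppb lie on the same chromosome, and both windows held 1 TATA box and 2 GATA cores. The Nppb window also held 1 M-CAT core, 105 to 100 bases before the start. The Acta1 window held 1 TATA box, 1 M-CAT core and 1 CArG box, and the Ankrd1 window held 2 M-CAT cores and 1 GATA core. The Sprr1a window held 1 TATA box and 2 AP-1 elements, 146 to 140 and 116 to 110 bases before the start. No 2 of the marked matches overlapped. Among 32851 RefSeq promoter windows of the same length, 12.4% held TATAAA, 22.6% GATAA, 12.6% CATTCC, 4.46% TGAGTCA and 1.47% a CArG box. Genes of the set that were not called higher in FFFF were searched in the same way. Myl7 had 1 GATA core, 1 M-CAT core and 1 CArG box, and Myh6 and Myh7 each had 1 M-CAT core. Tnni1 and Myl4 had no match, and none of these genes had the letters TATAAA or TGAGTCA in the window. The search was for exact letters, so that variants of an element were not counted. GATA cores, M-CAT cores and CArG boxes were thus not confined to the genes that rose. A match describes the letters of the window and is not evidence of binding.

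Of the 10 genes, 5 were called higher in FFFF hearts 1 day after I/R (Nppa, Nppb, Acta1, Ankrd1 and Sprr1a) and 0 lower. Of all 24479 features, 5.93% were called higher in that comparison. At 5 days the same 5 genes were called higher, against 8.26% of all features. In DKO hearts, 3 of the 10 were called higher at 1 day (Nppb, Ankrd1 and Sprr1a), against 2.58% of all features, and 1 at 5 days (Sprr1a), against 3.23%. Without the array that went against its label, 2 of the 10 were called higher in DKO at 1 day (Ankrd1 and Sprr1a), against 0.437% of all features. The median difference of the 10 genes in FFFF was 0.54 at 1 day and 0.29 at 5 days, beside -0.011 and -0.016 over all features. In DKO it was 0.17 and 0.20, beside 0.005 and -0.016, and the 1-day median was 0.41 without that array, beside 0.003. The samples are bulk tissue, in which fewer cells of a type and less RNA per cell cannot be told apart.

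**Figure D2:**
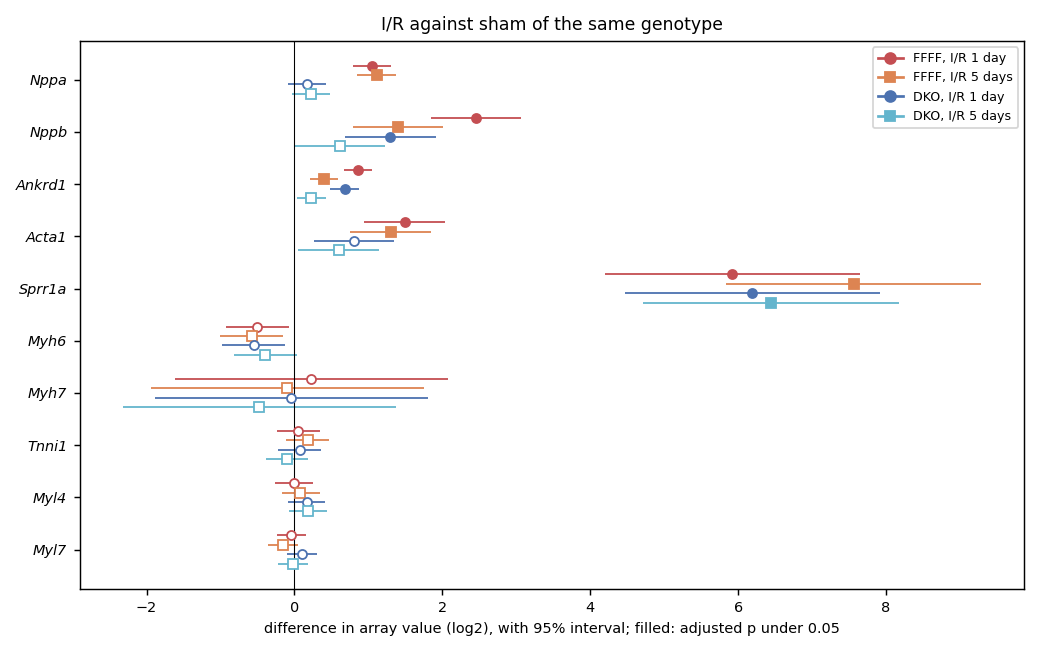
Difference between I/R and sham of the same genotype (log2 array value) for the 10 genes, with 95% intervals from limma over 18 arrays; filled symbols have an adjusted p under 0.05. Sprr1a lay far to the right in all 4 comparisons, and the intervals of Sprr1a and Myh7 were the widest.

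Nppa encodes atrial natriuretic peptide, a hormone of atrial muscle that the fetal and the stressed ventricle also make. In FFFF sham hearts its values were 12.80, 13.17 and 12.49. In DKO sham hearts they were 13.75, 13.68 and 13.68. Every DKO sham array lay above every FFFF sham array. The difference was 0.88 (standard error 0.12, a ratio of 1.84), with an adjusted p of 0.0488 by limma. In this comparison 2 of 24479 features were called, both higher in DKO, which is 0.00817% of all features, and the other was A1cf.

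The call for Nppa at sham was close to its threshold. Of 16 alternative fits at the same threshold, 7 kept it and 9 did not, with adjusted p from 5.5e-04 to 0.266 and a difference between 0.72 and 1.06. The 7 include median centring and a further quantile normalization, which could hardly change arrays that already shared their distribution. It was lost without FFFF sham replicate 1 (adjusted p = 0.195) and without DKO sham replicate 1, 2 or 3 (adjusted p = 0.266, 0.232 and 0.121). The standard error pools all 6 groups, and the SD of Nppa was 0.34 in FFFF sham, 0.04 in DKO sham and 0.00 in both groups at 5 days, where all arrays sat at the highest value. With the 2 sham groups fitted alone the adjusted p was 0.124. The 8 fibroblast and matrix markers averaged 9.24 to 9.64 in DKO sham and 8.55 to 8.64 in FFFF sham, and their part in the Nppa difference was not tested. The cardiomyocyte markers did not separate the sham groups, with means of 12.82 in FFFF and 12.81 in DKO. A model with that mean could therefore hardly move the Nppa difference between them, which was again 0.88 (adjusted p = 0.0294, limma).

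After I/R, Nppa reached the top of the scale in both genotypes. At 1 day FFFF arrays had 13.93, 13.75 and 13.93, and DKO arrays had 13.75, 13.93 and 13.93. At 5 days all 6 arrays had 13.93. In FFFF the rise was 1.05 at 1 day (adjusted p = 6.5e-04) and 1.11 at 5 days (adjusted p = 1.7e-04), each with a standard error of 0.12. DKO hearts differed from their sham by 0.17 (adjusted p = 0.464) and 0.23 (adjusted p = 0.293), and the 1-day difference was 0.23 (adjusted p = 0.466) without the array that went against its label. The FFFF sham mean lay 1.11 below the highest value and the DKO sham mean 0.23 below it, so that the difference seen at 5 days equalled the room that was left in each genotype. The response of DKO minus that of FFFF was -0.88 at both times (95% interval -1.25 to -0.52, unadjusted p = 1.4e-04, adjusted p = 0.512 and 0.884, limma). It was called at both times where FFFF sham replicate 2 was left out (-1.06, adjusted p = 0.0163) and under no other alternative. The array could not have shown a larger DKO response at 5 days.

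**Figure D3:**
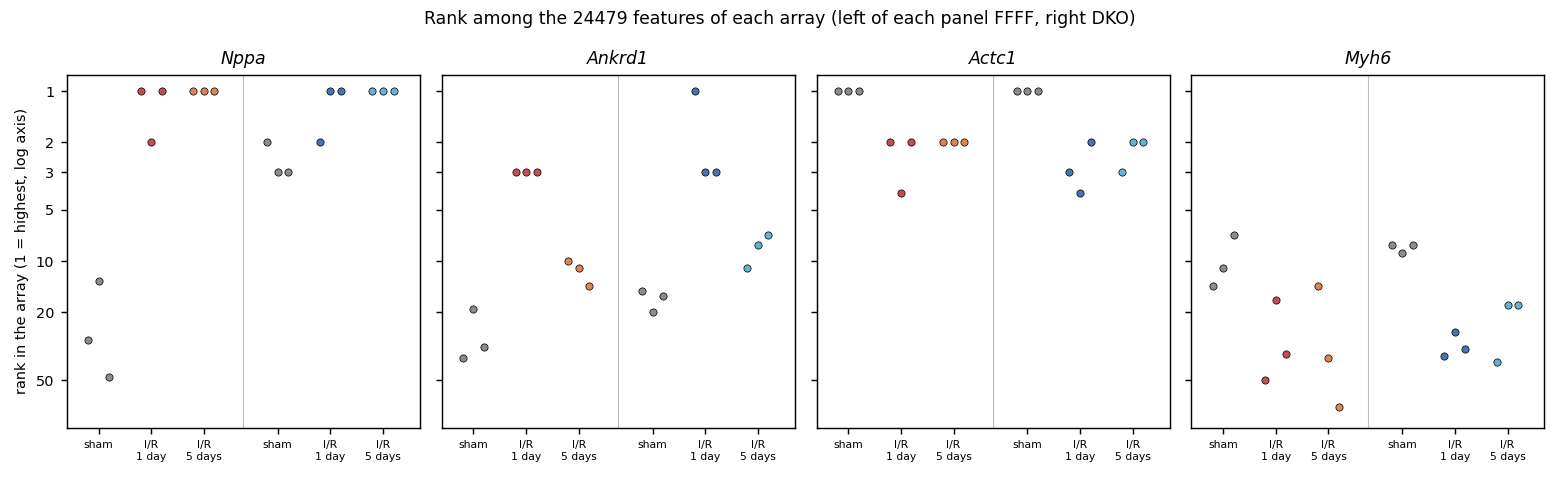
Rank of Nppa, Ankrd1, Actc1 and Myh6 among the 24479 features of each array, on a log axis with rank 1 at the top; colours as in the plot of values by array. Actc1 held rank 1 in all 6 sham arrays and Nppa held it in all 6 arrays at 5 days.

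Nppb encodes B-type natriuretic peptide, the ventricular member of the family and a plasma marker of heart failure, and it had room to move in both genotypes. Its values were 10.83, 10.73 and 9.76 in FFFF sham and 13.08, 12.58 and 13.03 at 1 day. At 5 days they were 11.36, 11.97 and 12.18. Nppb thus rose at 1 day, with all I/R arrays above all sham arrays, and stood between sham and 1 day at 5 days. The rise in FFFF was 2.46 at 1 day (standard error 0.29, a ratio of 5.49, adjusted p = 6.5e-04) and 1.40 at 5 days (adjusted p = 0.00554). The 5-day call was lost with the cardiomyocyte marker mean in the model (0.84, adjusted p = 0.147) and with the compared groups alone (adjusted p = 0.0735). The decline from 1 day to 5 days was called (-1.06, adjusted p = 0.0424), and 10 of 17 alternative fits at the same threshold did not keep that call. It was lost without FFFF replicate 1 or 3 at 1 day (adjusted p = 0.146 and 0.127) and without FFFF replicate 1, 2 or 3 at 5 days (adjusted p = 0.0954, 0.0982 and 0.0548). In this comparison 2 of the 10 genes, Nppb and Ankrd1, were called lower, against 3.2% of all features.

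In DKO hearts Nppb was 11.24, 11.55 and 11.61 after sham surgery. It was 13.10, 12.34 and 12.84 at 1 day and 12.22, 11.85 and 12.18 at 5 days. The DKO sham arrays lay above all FFFF sham arrays, while the groups of the 2 genotypes overlapped at 1 and 5 days. The rise at 1 day was 1.29 (standard error 0.29, adjusted p = 0.0245). Without the array that went against its label it was 1.12 (adjusted p = 0.111), and the call was lost in 6 of 16 alternative fits at the same threshold, among them those without DKO sham replicate 1 or 2 (adjusted p = 0.0913 and 0.0735) or DKO I/R 1 day replicate 3 (adjusted p = 0.0701). At 5 days the difference from sham was 0.62 (adjusted p = 0.214).

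DKO and FFFF differed in Nppb by 1.03 at sham (adjusted p = 0.522), by -0.14 at 1 day (adjusted p = 0.964, and -0.31 with 0.823 without the array that went against its label) and by 0.24 at 5 days (adjusted p = 1). The 1-day response of DKO minus that of FFFF was -1.17 (95% interval -2.03 to -0.30, unadjusted p = 0.0121, adjusted p = 1). It was -1.34 (adjusted p = 0.767) without the array that went against its label. The 1-day values of both genotypes lay between 12.34 and 13.10, and the sham values set the size of this contrast.

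Of 10 genes for processing, receptors and signalling of the natriuretic peptides, 0 were called at 1 day in FFFF. Of all features, 5.93% were called higher there and 5.79% lower. At 5 days 2 of the 10 were called lower, where 10% of all features were. These were Npr3, the clearance receptor, with -0.94 (adjusted p = 0.0392), and Mme, the protease neprilysin that degrades the peptides, with -1.31 (adjusted p = 0.0453). Corin, the enzyme that cuts the Nppa precursor, had -1.12 (adjusted p = 0.0571). In DKO 0 of the 10 were called at either time, nor at 1 day without the array that went against its label. Of all features, 2.58% were called higher and 2.54% lower in DKO at 1 day, and 3.23% and 2.84% at 5 days. Without that array the 1-day shares were 0.437% and 0.404%. A count of 0 of 10 is near these shares. The median of the list in FFFF was -0.45 at 1 day and -0.11 at 5 days.

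Ankrd1 encodes CARP, an ankyrin repeat protein that binds titin at the sarcomere and also enters the nucleus. Its values were 12.67, 13.03 and 12.74 in FFFF sham, 13.68 in each FFFF array at 1 day, and 13.26, 13.23 and 13.15 at 5 days. The 3 equal values at 1 day were rank 3 in each array. Their SD was 0.00, against 0.19 in FFFF sham, and the standard error pools all 6 groups. Values fixed by the top ranks enter it, so that the p-values of Ankrd1 may be too small. The rise was 0.86 at 1 day (standard error 0.09, adjusted p = 3.6e-04) and 0.40 at 5 days (adjusted p = 0.00863), and the decline between them was -0.46 (adjusted p = 0.00957). The 5-day call was lost with the cardiomyocyte marker mean in the model (0.42, adjusted p = 0.0862), with the compared groups alone (adjusted p = 0.0841) and with female arrays alone (0.33, adjusted p = 0.142). The sham means lay 1.11 (FFFF) and 0.84 (DKO) below the highest value, so that the 1-day rises may be understated.

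In DKO hearts Ankrd1 was 13.13, 13.02 and 13.10 after sham surgery. It was 13.93, 13.68 and 13.68 at 1 day and 13.23, 13.33 and 13.39 at 5 days. The DKO array that went against its label was the single array in which Ankrd1 held rank 1. The rise at 1 day was 0.68 (adjusted p = 0.00217), and 0.59 without that array (adjusted p = 0.0115). This call was lost with the compared groups alone (adjusted p = 0.056). The decline from 1 day to 5 days was -0.44 (adjusted p = 0.0158), and -0.36 without that array (adjusted p = 0.075). That call was also lost without DKO I/R 5 days replicate 1 or 2 (adjusted p = 0.0725 and 0.0534). Ankrd1 was the 1 gene of the 10 called lower in that comparison, where 2.14% of all features were. DKO and FFFF differed by 0.27 at sham (adjusted p = 0.68), by 0.08 at 1 day (0.00 without that array) and by 0.10 at 5 days.

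Acta1 encodes skeletal muscle α-actin, the actin isoform that the fetal heart shares with skeletal muscle. Its values were 10.23, 10.44 and 10 in FFFF sham, 11.93, 11.29 and 11.91 at 1 day and 11.24, 11.86 and 11.47 at 5 days. All I/R arrays of FFFF lay above all sham arrays. The rise was 1.49 at 1 day (standard error 0.25, a ratio of 2.8, adjusted p = 0.00472) and 1.30 at 5 days (adjusted p = 0.00462). With the cardiomyocyte marker mean in the model the 5-day difference was 1.21 and was not called (adjusted p = 0.0808).

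In DKO hearts Acta1 was 11.08, 11.66 and 11.24 after sham surgery, 11.97, 12.20 and 12.23 at 1 day and 11.67, 11.58 and 12.52 at 5 days. The difference from sham was 0.81 at 1 day (adjusted p = 0.0788) and 0.60 at 5 days (adjusted p = 0.173), and 0.89 at 1 day (adjusted p = 0.16) where the array that went against its label was left out. At 1 day the DKO arrays did not overlap with sham, as was also so for Nppb, Ankrd1 and Sprr1a, against 11.4% of all features with higher arrays in that comparison. DKO exceeded FFFF by 1.10 at sham (unadjusted p = 6.9e-04, adjusted p = 0.423), by 0.42 at 1 day (0.51 without that array) and by 0.40 at 5 days. Skeletal muscle markers, among them Myh2 and Myh4, averaged 4.25 to 4.57 in every array, which is within the olfactory receptor range.

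Across genotypes at sham, 5 of the 10 genes had every DKO array above every FFFF array (Nppa, Nppb, Myh7, Acta1 and Sprr1a) and 0 the reverse, while 7.41% of all features had DKO arrays wholly above FFFF arrays. The sham values of Sprr1a, 4.10, 4.05 and 4.08 in FFFF and 4.41, 4.38 and 4.11 in DKO, lay within the olfactory receptor range. The median genotype difference of the 10 genes was 0.26 at sham, 0.10 at 1 day and 0.11 at 5 days, beside -0.004, 0.007 and -0.002 over all features. At 1 day, 0 of the 10 were called, as were 0% of all features, and Acta1 and Myl7 had DKO arrays wholly above FFFF arrays, against 5.94% of all features. At 5 days 0 of the 10 were called, again with 0% of all features. By limma at an unadjusted p under 0.05, 4 of the 10 differed between genotypes at sham, 0 at 1 day and 0 at 5 days, beside 1459, 1639 and 590 of all features. Without the array that went against its label, 0 of the 10 were called at 1 day, beside 0.0123% of all features called higher and 0.049% lower, and their median genotype difference was again 0.10.

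**Figure D4:**
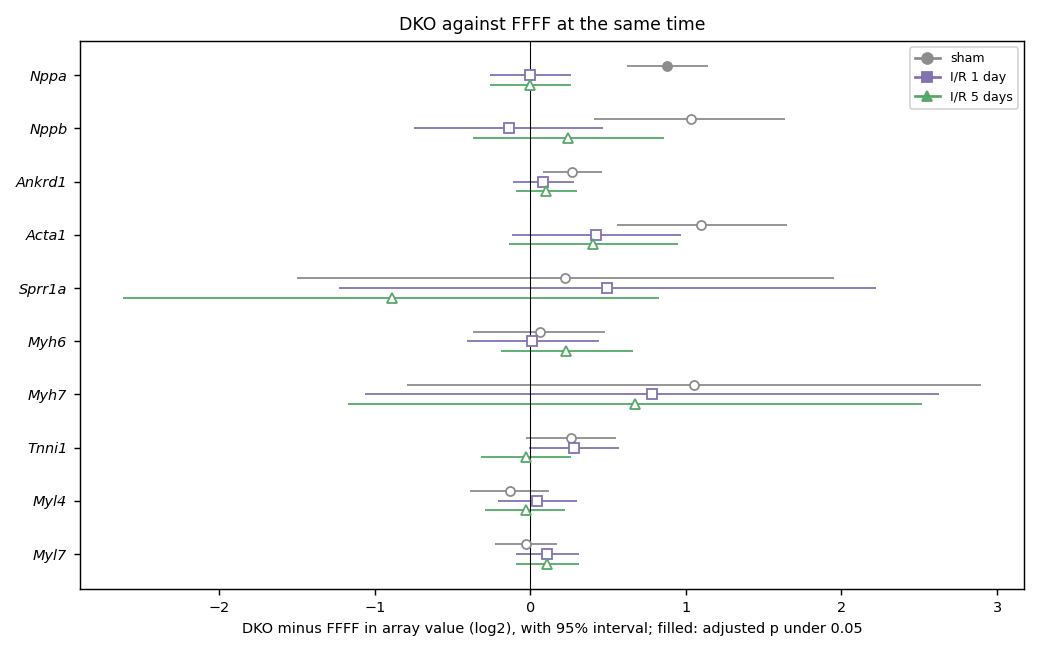
DKO minus FFFF (log2 array value) at sham, 1 day and 5 days for the 10 genes, with 95% intervals from limma over 18 arrays; the filled symbol, Nppa at sham, has an adjusted p under 0.05. Nppa, Nppb and Acta1 lay to the right of 0 at sham by 0.88 to 1.10 and closer to 0 after I/R.

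The response to I/R was called different between genotypes for 0 of the 10 genes at 1 day, where 0.00409% of all features were called (1 feature), and for 0 at 5 days, where 0% were (limma). At an unadjusted p under 0.05 these counts were 2 and 1 of the 10, and 1125 and 979 of all features. The median difference in response was -0.11 at 1 day and -0.33 at 5 days. Without the array that went against its label it was 0.06 at 1 day, and 0 of the 10 were called. Nppa, Nppb, Acta1 and Ankrd1 had smaller responses in DKO at both times, with differences in response of -0.88, -1.17, -0.68 and -0.18 at 1 day and -0.88, -0.78, -0.70 and -0.16 at 5 days. The 1-day values were -0.82, -1.34, -0.59 and -0.27 without that array. Both the response and the sham difference use the same sham arrays, and a high sham value lowers the response by construction.

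Sprr1a belongs to the small proline-rich proteins, crosslinked parts of the cornified envelope of skin, and is also known as a stress-induced gene of cardiomyocytes. It showed the largest differences of the 10 genes. Its FFFF values were 11.84, 7.83 and 10.33 at 1 day and 11.04, 12.02 and 11.84 at 5 days. Its DKO values were 9.97, 9.69 and 11.82 at 1 day and 10.83, 11.69 and 9.71 at 5 days. All 12 I/R arrays lay above the olfactory receptor range and all 6 sham arrays lay within it, so that the fold has a lower bound.

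Set against the upper end of that range, 4.89, Sprr1a was at least 34.5-fold higher in FFFF at 1 day and at least 107-fold higher at 5 days. In DKO it was at least 48.6-fold higher at 1 day and at least 57.8-fold higher at 5 days. Leaving out 1 I/R array at a time, these bounds ranged from 18.3 to 73.3 and from 93.7 to 132 in FFFF, and from 30.7 to 64.2 and from 41.6 to 82.7 in DKO. Single arrays moved the 1-day bound by over 1.5 times: FFFF replicate 1 (18.3 without it), FFFF replicate 2 (73.3) and DKO replicate 3 (30.7). The fitted differences, which read the sham value as measured, were 5.92 at 1 day and 7.56 at 5 days in FFFF (adjusted p = 0.00176 and 1.5e-04) and 6.19 and 6.44 in DKO (adjusted p = 0.0019 and 0.00122), with a standard error of 0.80. Without the array that went against its label, the DKO rise at 1 day was 6.46 (adjusted p = 0.0102), and with female arrays alone the 5-day difference in DKO was 5.41 and was not called (adjusted p = 0.0741). DKO and FFFF did not separate at either time, with differences of 0.49 and -0.89 (adjusted p = 0.951 and 1), and 0.76 at 1 day (adjusted p = 0.863) without that array.

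The spread of Sprr1a at 1 day ran beside other markers in FFFF. The array with 7.83 had a leukocyte marker mean of 7.54 and a cardiomyocyte marker mean of 12.60, while the array with 11.84 had 8.67 and 12.07. In DKO at 1 day the array with 9.97 had a leukocyte mean of 8.62, but it was the array that went against its label. On the other arrays of that group the order was that of FFFF. The array with 9.69 had a leukocyte mean of 6.42 and a cardiomyocyte mean of 12.70, and the array with 11.82 had 7.09 and 12.27. The part of these markers in the spread was not tested. The 8 keratinocyte markers, among them Krt5, Krt14 and Ivl, averaged 4.33 to 4.50 in every array, within the olfactory receptor range.

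Of 12 other Sprr genes measured, 0 were called at 1 day in either genotype, where 5.93% of all features in FFFF and 2.58% in DKO were called higher. At 5 days 1 of the 12, Sprr2a3, was called higher in FFFF (2.11, standard error 0.60, adjusted p = 0.0256), a share near the 8.26% of all features, and in DKO its difference was 0.83 (adjusted p = 0.463). The Sprr2 genes are near-identical copies, and probes may not tell them apart. The median difference of these genes was -0.03 at 1 day and 0.00 at 5 days in FFFF.

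Myh6 and Myh7 encode α- and β-myosin heavy chain, the fast adult and the slow fetal motor of the mouse ventricle, and Myh6 is also the gene whose promoter drove Cre. Their coding sequences are near-identical in parts, and cross-hybridization between them cannot be told apart from expression here. Myh6 was 13.15, 13.23 and 13.39 in FFFF sham, 12.46, 13.08 and 12.70 at 1 day and 13.15, 12.67 and 12.23 at 5 days. In DKO it was 13.33, 13.29 and 13.33 after sham surgery, 12.68, 12.87 and 12.73 at 1 day and 12.63, 13.06 and 13.06 at 5 days. I/R arrays lay below the sham arrays in each genotype, except that FFFF replicate 1 at 5 days and FFFF sham replicate 1 were level at 13.15, and no call was made.

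The Myh6 differences in FFFF were -0.51 at 1 day (standard error 0.20, adjusted p = 0.116) and -0.58 at 5 days (adjusted p = 0.0598). In DKO they were -0.55 (adjusted p = 0.118) and -0.40 (adjusted p = 0.254), and -0.51 at 1 day (adjusted p = 0.308) without the array that went against its label. Arrays wholly below sham were seen for 18%, 18.5%, 12.3% and 18.2% of all features in these 4 comparisons, and for Myh6 in each of them apart from the level pair in FFFF at 5 days. Myh6 passed the threshold in 2 of 16 alternative fits at 1 day and in 4 of 17 at 5 days in FFFF. Among these were the fits without FFFF replicate 2 at 1 day (-0.67, adjusted p = 0.0463) and without FFFF replicate 1 at 5 days (-0.81, adjusted p = 0.00433). Its values moved with the cardiomyocyte marker mean, which was 12.73, 12.20 and 11.77 in the 3 FFFF arrays at 5 days. With that mean in the model the Myh6 differences in FFFF were -0.07 at 1 day and -0.04 at 5 days. The markers are mostly sarcomere genes of the same cells as Myh6. This fit cannot tell a decline of Myh6 itself from a decline of muscle transcripts as a set.

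Myh7 and Sprr1a varied most between arrays of 1 group. Its values were 9.0, 9.11 and 8.99 in FFFF sham, 8.16, 10.02 and 9.59 at 1 day and 9.71, 8.41 and 8.69 at 5 days. In DKO they were 10.06, 9.39 and 10.80 after sham surgery, 8.24, 12.30 and 9.58 at 1 day and 8.69, 9.15 and 10.99 at 5 days. The SD was 0.07 in FFFF sham and 2.07 in DKO at 1 day. Differences from sham ranged from -0.48 to 0.23 with a standard error of 0.86, and adjusted p lay between 0.816 and 0.985. The 95% interval in FFFF at 1 day ran from -1.62 to 2.07, and a difference within it was not detectable with these arrays.

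Myh7 was 1.05 higher in DKO than in FFFF at sham (95% interval -0.79 to 2.90, adjusted p = 0.978), and every DKO sham array lay above every FFFF sham array. Without the array that went against its label, the DKO difference from sham at 1 day was 0.86 (adjusted p = 0.688). Within each array, Myh7 minus Myh6 was on average -4.23 in FFFF sham (SD 0.15) and -3.23 in DKO sham (SD 0.69). It was -3.49 in FFFF and -2.72 in DKO at 1 day, and -3.75 and -3.31 at 5 days. Without the array that went against its label the DKO mean at 1 day was -1.86, a change from sham of 1.37. These distances follow the probes as well as the transcripts, so that their changes and not their sizes can be read. The change from sham to 1 day in FFFF, 0.73, was smaller than the pooled SD within groups of 1.02. In the DKO array with a Myh7 of 12.30 it was -0.57, and without that array the DKO change at 1 day turned from 0.51 to -0.57.

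An intron of Myh6 holds the microRNA gene Mir208a, and an intron of Myh7 holds Mir208b. The array carries a feature for each precursor, and both were chosen after their values had been seen, so that they are described with no test. The mature sequences are shown because the pair shares its seed, bases 2 to 8, marked in capitals, and the 2 differ in 3 of 22 bases outside it.
mmu-miR-208a-3p, chr14:54949072-54949093, minus strand: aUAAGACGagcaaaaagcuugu
mmu-miR-208b-3p, chr14:54975710-54975731, minus strand: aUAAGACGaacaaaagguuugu

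The Mir208a feature was 6.51, 5.91 and 7.01 in FFFF sham, 4.16, 5.04 and 4.25 at 1 day and 4.94, 4.42 and 4.28 at 5 days. In DKO it was 6.37, 6.92 and 6.48 after sham surgery, 4.50, 4.52 and 4.47 at 1 day and 4.48, 5.14 and 5.41 at 5 days. All I/R arrays lay below all sham arrays in each genotype. In FFFF it differed from sham by -1.99 at 1 day and -1.93 at 5 days, each with a standard error of 0.31. In DKO these values were -2.09 and -1.58, and -2.10 at 1 day without the array that went against its label. Most of the 12 I/R arrays had values within the olfactory receptor range, where a difference may be understated. The Mir208b feature lay within that range in every array, from 3.60 to 4.08. The feature reads precursor or intron RNA, and mature miR-208a was not measured.

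**Figure D5:**
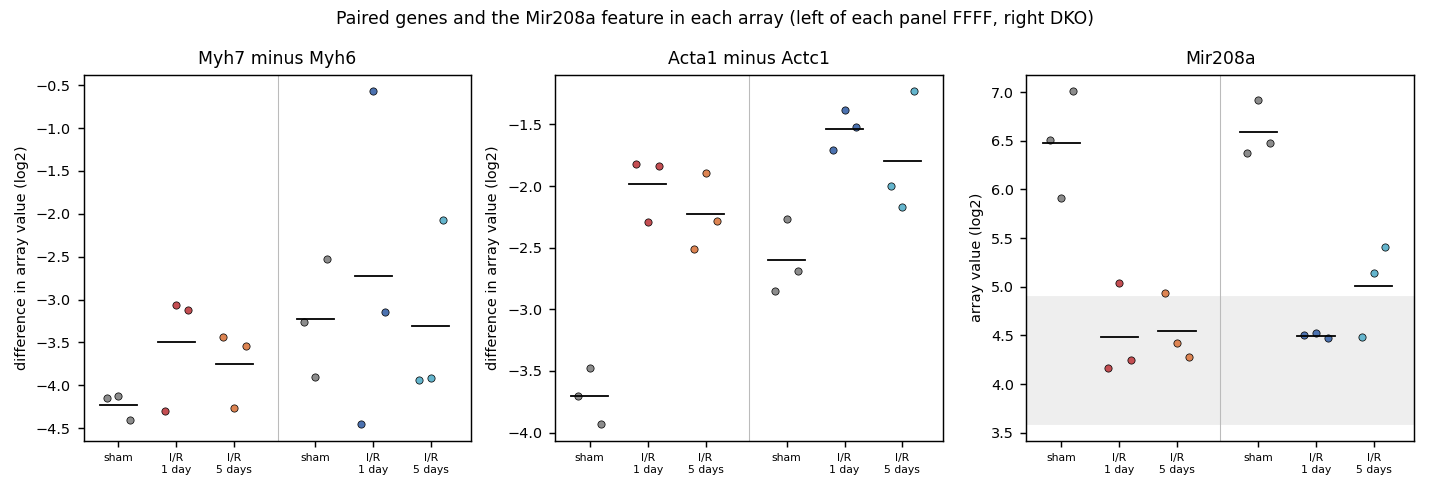
Left and middle, difference in log2 array value within each array between Myh7 and Myh6 and between Acta1 and Actc1; right, the Mir208a feature with the olfactory receptor range in grey. Acta1 came closer to Actc1 after I/R in both genotypes, and Mir208a was lower in every I/R array than in every sham array.

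The adult partners of the fetal isoforms were read in the same arrays. Actc1, cardiac α-actin, held rank 1 (13.93) in all 6 sham arrays and ranks 2 to 4 after I/R, and Acta1 minus Actc1 was -3.70 in FFFF sham (SD 0.22), -1.98 at 1 day (SD 0.27) and -2.23 at 5 days (SD 0.31). In DKO it was -2.60, -1.53 and -1.80, and -1.45 at 1 day without the array that went against its label. The I/R arrays did not overlap with sham in either genotype. Since Actc1 sat at the highest value in sham, its decline of -0.18 to -0.26 (adjusted p 0.0172 to 0.0438, limma) may be understated. Values here are ranks, and in FFFF at 5 days Actc1 held rank 2 in all 3 arrays with Nppa at rank 1. A decline of Actc1 and a rise of Nppa or Ankrd1 past it cannot be told apart. The SD of Actc1 was 0.00 in both sham groups, so that its p-values may be too small. Without the array that went against its label Actc1 was not called in DKO at 1 day (-0.26, adjusted p = 0.0795). The 2 actins are near-identical in coding sequence. These distances were not tested.

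Of 12 other sarcomere genes, mostly adult ventricular partners of the 10, 5 were called lower in FFFF at 5 days and 1 at 1 day, where 10% and 5.79% of all features were called lower. The 5 were Actc1, the slow skeletal troponin T gene Tnnt1 (-1.49, adjusted p = 0.0105), the adult cardiac troponin I gene Tnni3 (-0.72, adjusted p = 0.0149), and the ventricular light chains Myl3 (-1.18, adjusted p = 0.0283) and Myl2 (-0.49, adjusted p = 0.0294). In DKO 1 of the 12, Actc1, was called lower at each time, where 2.54% and 2.84% of all features were, and 0 at 1 day without that array, where 0.404% were. The calls of Actc1 carry the limit of the top ranks given above. The median of the list in FFFF was -0.22 at 1 day and -0.37 at 5 days, and in DKO -0.20 and -0.30. The list shares genes with the cardiomyocyte markers, whose mean in FFFF fell from 12.82 in sham to 12.34 at 1 day and 12.23 at 5 days.

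Tnni1, the slow skeletal troponin I of the fetal heart, and Myl4 and Myl7, the atrial essential and regulatory light chains, stayed at the background of the array. Over all 18 arrays Tnni1 ranged from 4.20 to 4.90, Myl4 from 4.45 to 4.97 and Myl7 from 3.91 to 4.42. Myl4 had all DKO arrays at 5 days above all DKO sham arrays, 4.71, 4.64 and 4.83 against 4.60, 4.55 and 4.48, which was also so for Nppa, Nppb, Ankrd1 and Sprr1a, beside 14.8% of all features. Its difference was 0.18 (adjusted p = 0.404). Within each array Tnni1 minus Tnni3 was -9.12 in FFFF sham, -8.66 at 1 day and -8.22 at 5 days, while Tnni1 stayed at background and Tnni3 declined. In the same way Myl4 minus Myl3 was -7.67, -7.23 and -6.41, and Myl7 minus Myl2 was -8.91, -8.76 and -8.57.

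Other genes of stressed heart muscle rose beside the 5. Of 20 genes on a list of muscle stress and remodelling, 15 were called higher in FFFF at 1 day and 6 at 5 days, where 5.93% and 8.26% of all features were. In DKO 7 and 5 were called higher, where 2.58% and 3.23% of all features were, and 2 at 1 day (Xirp2 and Fhl1) without the array that went against its label, where 0.437% were. The largest at 1 day in FFFF was Ankrd2, a titin-binding relative of Ankrd1, with 3.94 (standard error 0.60, adjusted p = 0.00282). Fhl1, a LIM-domain protein of the sarcomere, rose by 2.16 in FFFF (adjusted p = 6.5e-04) and 1.73 in DKO (adjusted p = 0.00427), or 1.45 (adjusted p = 0.0174) without that array. At 5 days Postn, the matrix protein periostin, rose by 5.12 in FFFF (adjusted p = 3.2e-05) and by 3.59 in DKO (adjusted p = 7.9e-04). The median of the list was 1.53 and 0.57 in FFFF and 1.06 and 0.36 in DKO, with 0.80 at 1 day without that array. The genotypes were called different for 0 of the 20 at any time.

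Of 27 known regulators of the fetal program, 0 were called higher and 3 lower in FFFF at 1 day, where 5.93% and 5.79% of all features were. The 3 were Thrb, the thyroid hormone receptor β (-1.07, adjusted p = 0.0253), Nfatc2 (-0.58, adjusted p = 0.0303) and Mef2a (-0.43, adjusted p = 0.0446). At 5 days Nfatc1 and Nfatc4 were called higher (0.50 and 0.73, adjusted p = 0.00828 and 0.0195), and Thrb, Tead1 and Myocd lower (-1.13, -0.45 and -1.38). These 2 and 3 of 27 are near the shares of all features, 8.26% higher and 10% lower. In DKO the calls were Hdac5 lower at 1 day (-0.64, adjusted p = 0.0238), and Dio2, which activates thyroid hormone, higher and Tead1 lower at 5 days (0.70 and -0.45). These single calls are also near the shares of all features, 2.54% lower at 1 day and 3.23% higher and 2.84% lower at 5 days. Hdac5 was not called without the array that went against its label (-0.63, adjusted p = 0.0912). The genotypes were called different for 0 of the 27. The transcript level of these factors does not give their activity.

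The features that moved most like each gene over the 18 arrays were sought among 2673 features with an SD of at least 0.5. Nppa was most like Dpysl3 (Pearson's r = 0.89) and Acta1 (0.86), Nppb like Rasl11b (0.93), and Acta1 like Dpysl3 (0.90) and Nppb (0.84). Ankrd1 was most like Fgl2 and Fhl1 (0.92 each), Myh6 like Coq9 (0.96) and Sprr1a like Vim and Lgals1 (0.97 each). Myh7 had no close neighbour, the highest being Dpep1 (0.75). These correlations describe 18 arrays that share the step from sham to I/R, and within groups the r of Nppa with Dpysl3 was 0.50 and that of Myh6 with Coq9 was 0.94.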

How the data were processed

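RNA of 18 left ventricular samples was hybridized to Affymetrix mouse gene 2.0 ST arrays. The deposited values are log2 intensities that the authors made from the scans by RMA (version not stated) with a custom chip definition of 1 feature per Entrez gene. RMA includes quantile normalization, which is why all arrays shared 1 distribution (largest difference between sorted values 0.0019), and it compresses fold changes, so that a ratio is that of array values. The scanner files were not used here. Of 24479 features, 23281 were named by the platform table, 556 through the mouse gene reference and 642 had no name. Symbols of the 10 genes were matched through their Entrez number.

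A linear model with 6 groups was fitted to all features with limma 3.58.1 in R 4.3.3 (lmFit and eBayes, 12 residual degrees of freedom), with two-sided tests, Benjamini-Hochberg adjustment over all 24479 features and a threshold of 0.05. The script was tested on simulated data. The number of arrays, 3 per group, limits the precision. The highest correlation of 2 arrays of 1 group was 0.9938, so that no pair looked like 1 array deposited again. Replicate numbers paired samples in 1 comparison, DKO against FFFF at 1 day, by a check of the data and not by the labels: the deviations from the group means of same-numbered arrays correlated by 0.38, 0.53 and 0.36. Alternatives were a replicate block, array weights, a variance trend, and sex or the cardiomyocyte marker mean in the model. A filter kept the 16091 features above the 40th percentile in at least 3 arrays. Others were median centring, a further quantile normalization, the compared groups alone, the methods' gene-wise test, female arrays alone and leaving out each array. A threshold of 0.01 was counted apart from these fits. Median centring and a further quantile normalization could hardly change arrays that already shared 1 distribution, so they add little to the counts of fits that kept a call. Female arrays alone and the block within the 1-day groups were added after seeing the data. The 10 genes, the lists of related genes and the markers were chosen with earlier results of these data known. Beside the 10 genes, the text names their adult partners, up to 4 genes with the smallest p from each list or those with a call, and the features most like each gene. Mir208a and Mir208b were chosen after their values were seen.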

Additional observations from a re-analysis of the deposited data

How the results depend on the processing

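Of 18 calls among the 10 genes, 9 stayed past the threshold under every alternative that was run. These were Nppa, Nppb, Acta1, Ankrd1 and Sprr1a in FFFF at 1 day, Nppa and Sprr1a in FFFF at 5 days, Ankrd1 in FFFF from 1 to 5 days and Sprr1a in DKO at 1 day. Of 92 results that were not called, 85 were not called under any alternative. The ceiling of the scale limits Nppa and, at 1 day, Ankrd1, and the background level limits Tnni1, Myl4, Myl7 and the sham values of Sprr1a. Values fixed at the top ranks also narrow the pooled standard errors of Nppa and Ankrd1. The cause of the changes below was not tested.

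Of the 10 genes, the number called in FFFF at 5 days (5) became 2 with the cardiomyocyte marker mean in the model (without Nppb, Acta1 and Ankrd1) and 3 with the compared groups alone (without Nppb and Ankrd1). From 1 to 5 days in FFFF it became 1 (from 2) with the compared groups alone, female arrays alone, the methods' gene-wise test, sex in the model or a threshold of 0.01. In DKO at 1 day it became 1 (from 3) with the compared groups alone. In DKO at 5 days it became 3 (from 1) with the compared groups alone and 0 with female arrays alone. From 1 to 5 days in DKO it became 0 (from 1) with the compared groups alone, female arrays alone, sex in the model or a threshold of 0.01. At sham, DKO against FFFF, it became 0 (from 1) with the compared groups alone, the filter, the methods' gene-wise test, sex in the model or a threshold of 0.01.

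With a replicate block, the number called became 1 from 1 to 5 days in FFFF and 0 at sham between genotypes, and was the same as without it in all other comparisons. The block changed no call in the 1 paired comparison, with 0 called with and without it, and elsewhere the samples shared a number only.

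Signs turned only in results that were not called. With array weights Acta1 was 0.04 from 1 to 5 days in FFFF, Myl4 -0.01 between genotypes at 1 day and Tnni1 0.09 at 5 days. With the cardiomyocyte marker mean in the model, Myl4 was 0.06 in FFFF at 1 day, Myh7 1.67 in FFFF at 5 days, 1.20 in DKO at 1 day and 0.89 at 5 days, Myh6 0.02 in DKO at 5 days, Myh6 and Myh7 0.03 and 0.01 from 1 to 5 days in FFFF, and Myh6 -0.04 between genotypes at 1 day. With female arrays alone, Myh7 and Myl7 were 0.90 and 0.13 in DKO at 5 days, Myl7 0.01 from 1 to 5 days in FFFF, and Myh7, Acta1, Myl7 and Sprr1a 0.95, 0.38, 0.03 and -0.79 from 1 to 5 days in DKO, while the difference in Myh7 response at 5 days was 1.25. With sex in the model, Myh7 was 0.47 in FFFF at 5 days, Myh7, Acta1 and Myl7 0.25, 0.08 and 0.02 from 1 to 5 days in FFFF, Myh7, Tnni1 and Myl7 0.09, 0.03 and 0.12 in DKO at 5 days, and Myh7, Acta1, Myl7 and Sprr1a 0.14, 0.06, 0.02 and -0.17 from 1 to 5 days in DKO.

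Leaving out 1 array at a time, the number called ranged from 1 to 2 from 1 to 5 days in FFFF and from 0 to 1 from 1 to 5 days in DKO, at sham between genotypes and in the difference in response at 1 day and at 5 days. In FFFF at 1 day the ranges were -0.16 to 0.77 for Myh7, -0.07 to 0.15 for Tnni1 and -0.09 to 0.07 for Myl4 and Myl7. At 5 days Myh7 ranged from -0.48 to 0.17, and from 1 to 5 days Myh6 from -0.30 to 0.16 and Myh7 from -0.87 to 0.06. In DKO at 1 day Myh7 ranged from -1.18 to 0.86 and Tnni1 from -0.02 to 0.17, at 5 days Myl7 from -0.09 to 0.04, and from 1 to 5 days Myh7 from -1.33 to 0.70, Myl4 from -0.12 to 0.15 and Sprr1a from -0.23 to 0.91. Between genotypes Myl7 ranged from -0.09 to 0.07 at sham. At 1 day Nppb ranged from -0.31 to 0.07, Myh6 from -0.13 to 0.18, Myh7 from -0.35 to 1.68, Myl4 from -0.09 to 0.17 and Sprr1a from -0.59 to 1.41. At 5 days Myh7 ranged from -0.02 to 1.13, Tnni1 from -0.12 to 0.07 and Myl4 from -0.08 to 0.02. The difference in response at 1 day ranged from -0.19 to 0.12 for Myh6, -1.40 to 0.63 for Myh7, -0.08 to 0.14 for Tnni1 and -0.81 to 1.19 for Sprr1a, and at 5 days from -0.05 to 0.41 for Myh6 and -1.07 to 0.08 for Myh7. The change of Myh7 minus Myh6 in DKO at 1 day ranged from -0.57 to 1.37 and its genotype difference at 1 day from -0.31 to 1.63. The change of Myl4 minus Myl3 in FFFF at 5 days ranged from 0.82 to 1.81 and its genotype difference at 5 days from -0.94 to 0.05.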
